A study of Mus musculus with 14 samples.

Results

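The response of the left ventricle of male C57Bl/6J mice to angiotensin II was taken from 7 Illumina expression arrays, chosen by their source labels from the 14 arrays of the series. Of the 7, 4 came from mice given angiotensin II for 48 h and 3 from sham-operated controls, and both groups share strain and sex, with no transgene or deletion named in the labels. The peptide was released by an osmotic mini-pump under the skin, at 500 ng/kg per unit of time. That unit is a minute in the title of the series but an hour in its design text, and the sources used here do not settle which holds. The other 7 arrays hold the same groups, 4 and 3, in the C57Bl/6N substrain and entered the same statistical fit. Each SE and p-value from that fit therefore draws on the spread within the groups of both substrains. It can differ from the spread of the C57Bl/6J values printed beside it. The labels give each sample its own number but do not state whether each is a different animal, so the p-values below measure the spread between these samples, and precision is limited by how few arrays there are.

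In the renin-angiotensin system, angiotensin II is the peptide that acts on tissues. Through the receptor encoded by Agtr1a in the mouse heart and vessels it constricts arteries and raises the load on the ventricle, and it acts on cardiomyocytes and fibroblasts directly. A loaded ventricle is known for re-expression of genes of the fetal heart, among them the natriuretic peptides, Myh7 and Acta1, and for deposition of extracellular matrix by fibroblasts. The left ventricle is a mixed tissue in which cardiomyocytes hold most of the mass, beside fibroblasts, endothelial cells, pericytes and resident macrophages. In such bulk tissue, fewer cells of a type and less RNA per cell cannot be told apart.

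The deposited table held signal intensities for 18138 gene rows, and 9408 of them (51.9%) were tested, those whose detection p-value was under 0.05 on 3 or more of the 14 arrays. Each C57Bl/6J array detected 46.8% to 48.2% of the rows, and their median raw intensities ran from 80.8 to 98.3. All levels below are log2 signals after background correction and quantile normalisation, and a difference of 1 on this scale is a 2-fold difference. Correlations of these values were 0.976 to 0.995 among the treated arrays, 0.993 to 0.995 among the sham arrays and 0.971 to 0.992 between the groups. Angiotensin II 1 stood apart from the other 3 treated arrays, by more than 1 log2 unit from each of them in 196 rows, against 1, 2 and 6 rows for angiotensin II 2, 3 and 4. Array numbers are names only and do not pair treated with sham samples. As markers of the labelled tissue, the ventricular light chain gene Myl2 had a log2 signal of 15.46 to 15.61 on the treated arrays and 15.61 on each sham array, and 13 of 13 tested cardiomyocyte markers were above background on all 7 arrays.

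More genes were called higher than lower in the treated ventricles after quantile normalisation, and most of the called changes were moderate. A gene is called higher or lower where the Benjamini-Hochberg adjusted p from limma was under 0.05 over all 9408 rows. By that rule 94 genes (0.999% of those tested) were higher and 35 (0.372%) were lower under angiotensin II, 129 (1.37%) in all. With median scaling in place of quantile normalisation the split turned, to 44 higher and 48 lower, and with the background inferred from all rows it was 38 and 29. Of the 94 higher genes, 6 changed by less than 0.5 on the log2 scale, 63 by 0.5 to 1, 18 by 1 to 1.5 and 7 by more than 1.5. Of the 35 lower genes, 7 changed by less than 0.5 and 28 by 0.5 to 1. The middle of the distribution lay close to 0, with a median log2 change of -0.01 and quartiles of -0.14 and 0.12.

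The treated and sham arrays did not overlap for 93 of the 94 higher genes. The exception was Meox1, a homeobox gene named here after its values were seen, whose log2 signal was 9.28 on angiotensin II 1 and 9.31 on sham 1. Over all tested rows, all 4 treated arrays lay above all 3 sham arrays in 747 (7.94%) and below them in 865 (9.19%), so that separation by itself was common in both directions. A change of at least 2-fold in either direction was seen in 47 rows (0.500%), 45 upwards and 2 downwards. Of the 45, 25 were called by limma, and of the 2, both with an unadjusted p under 0.05, 0 were. At an unadjusted p under 0.05 there were 1437 rows (15.3%).

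**Figure D1:**
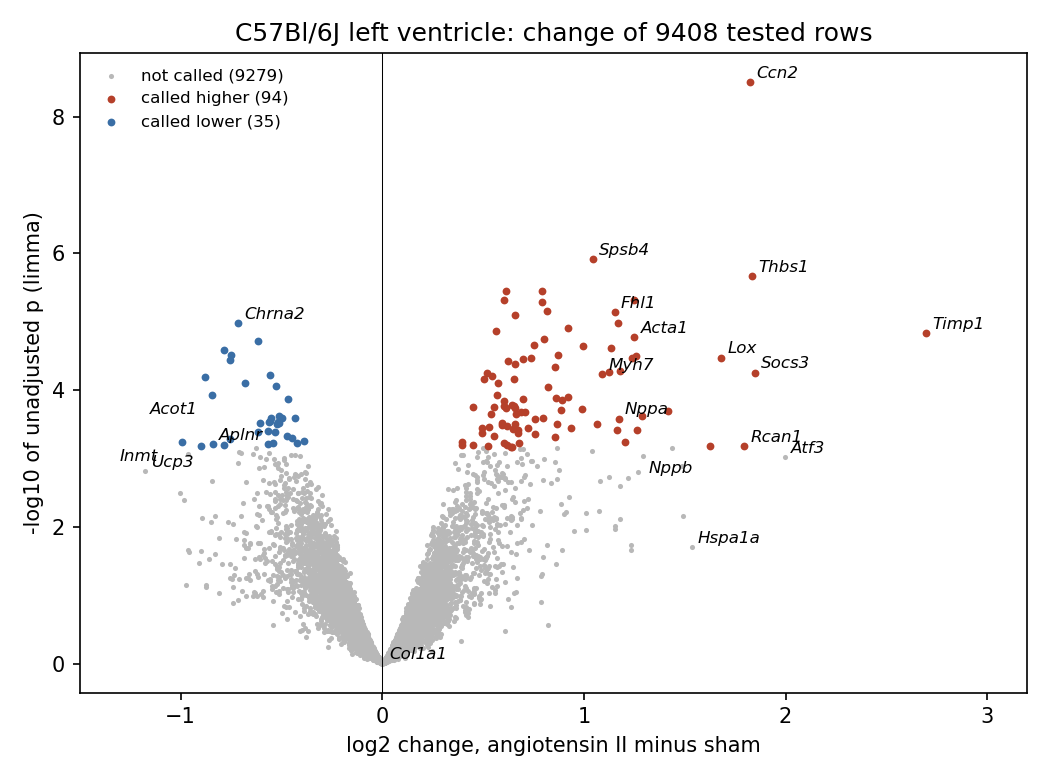
Log2 change of each of the 9408 tested rows, angiotensin II minus sham (x axis), against -log10 of the unadjusted limma p (y axis), with the 94 genes called higher in red, the 35 called lower in blue and the rest in grey. The right arm reaches 2.70 (Timp1), while the called genes of the left arm end at -0.99 (Inmt).

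Genes of the cardiac stress and hypertrophy programme held more called rises than any other list. Of 22 tested members of that list, 11 were called higher and 0 lower, against 0.999% of all tested rows called higher, and their median log2 change was 0.79, beside -0.01 over all tested rows. This list and those below were drawn up with earlier results of these data known. Their counts are therefore descriptions and do not test the lists. Acta1, which encodes skeletal alpha-actin and belongs to the fetal gene programme of the mouse ventricle, had log2 signals of 14.25, 14.05, 13.82 and 14.36 on the treated arrays, against 13.17, 12.68 and 12.75 on the sham arrays. The groups did not overlap, and sham 1 was the highest of its group. Its log2 change was 1.25 ± 0.20 (SE; limma adjusted p = 0.00927), or 2.38-fold.

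Nppa, the gene of atrial natriuretic peptide, had log2 signals of 14.90, 14.69, 14.85 and 14.69 under angiotensin II, against 13.76, 13.68 and 13.40 in sham ventricles. The groups did not overlap, and its log2 change was 1.17 ± 0.25 (adjusted p = 0.0314). Nppb, which encodes B-type natriuretic peptide, had 14.18, 14.03, 13.67 and 13.75 in treated ventricles, against 12.81, 12.66 and 12.38 in sham ventricles. The groups did not overlap either, yet its log2 change of 1.29 ± 0.31 missed the threshold in the fit on 14 arrays (limma adjusted p = 0.0572) and passed it with only the 7 C57Bl/6J arrays in the fit (adjusted p = 0.0144).

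Myh7, the slow myosin heavy chain that the mouse ventricle expresses before birth, had log2 signals of 9.97, 9.0, 9.63 and 9.34 on the treated arrays, against 8.63, 8.35 and 8.21 on the sham arrays. Its log2 change was 1.09 ± 0.20 (adjusted p = 0.0139), and angiotensin II 1 was the highest of its group. Myh6, the adult alpha-myosin heavy chain gene, had 14.87, 14.44, 14.61 and 14.59 under treatment, against 14.55, 14.51 and 14.67 in sham. These values overlapped throughout, with a log2 change of 0.05 ± 0.12 (adjusted p = 0.882). Atp2a2, the calcium pump of the sarcoplasmic reticulum, whose loss marks late heart failure, changed by 0.07 ± 0.08 (adjusted p = 0.709).

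Fhl1, a LIM-domain protein of the sarcomere, had a log2 signal of 12.97 on angiotensin II 1 and of 12.26, 12.39 and 12.30 on the other treated arrays, against 11.28, 11.31 and 11.39 in sham ventricles. The sham arrays lay close together, and angiotensin II 1 was the highest treated array (log2 change 1.15 ± 0.17, adjusted p = 0.00679). Ankrd1, a stretch-responsive protein of the titin filament, reached 14.54, 14.23, 14.32 and 14.15 under angiotensin II, against 13.61, 13.31 and 13.42 in sham (log2 change 0.86 ± 0.15, adjusted p = 0.0127). Xirp1, an actin-binding protein of the intercalated disc, changed by 0.75 (adjusted p = 0.0102) and Synpo2l, a Z-disc protein, by 0.82 (adjusted p = 0.0178). Tnfrsf12a, the receptor of the cytokine TWEAK, changed by 1.26 ± 0.21 (adjusted p = 0.0108).

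Uck2, which phosphorylates uridine and cytidine, had log2 signals of 10.40, 9.99, 9.91 and 9.93 on the treated arrays, against 9.05, 8.71 and 8.87 on the sham arrays. Mybpc2, the fast-muscle form of myosin-binding protein C, changed by 0.89 ± 0.18 (adjusted p = 0.0278). Rcan1, a calcineurin inhibitor that calcineurin itself induces, had 11.18, 11.38, 11.74 and 11.80 in treated ventricles, against 9.93, 9.44 and 9.81 in sham ventricles (log2 change 1.79 ± 0.42, adjusted p = 0.0492). A separate row, DSCR1, is named here after its values were seen. The RefSeq gene table lists that as an older name of Rcan1, and the row kept its own name because Rcan1 has a row already. It also rose, by 0.89 ± 0.18 (adjusted p = 0.0238). The 20 tested genes of calcineurin, NFAT and MEF2 signalling had a median log2 change of -0.04, and Rcan1 was the 1 member called.

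Markers of atrial tissue had a median log2 change of 0.56. Of 9 tested, 8 had a change above 0, and 2 were called higher, Nppa and Myl1, a fast-muscle myosin light chain. Over all tested rows 47.9% had a change above 0 and 0.999% were called higher. Myl7, the atrial regulatory light chain, had log2 signals of 11.65, 11.33, 11.44 and 11.37 on the treated arrays, against 11.34, 10.55 and 10.53 on the sham arrays. Sham 1 was the highest sham array for both Myl7 and Myl4, the atrial essential light chain, which had 12.88, 12.75, 12.75 and 12.79 under treatment, against 12.40, 12.01 and 11.78 in sham. The list median relative to the sham mean was 0.80, 0.45, 0.52 and 0.56 under angiotensin II, against 0.16, -0.10 and -0.22 in sham, and the part of atrial tissue in the rises of Nppa and the other shared genes was not tested. Sarcomere and Z-disc genes had a median log2 change of 0.06 over 26 tested members, of which 2 were called, the Z-disc proteins Pdlim1 (0.60) and Pdlim3 (0.80).

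**Figure D2:**
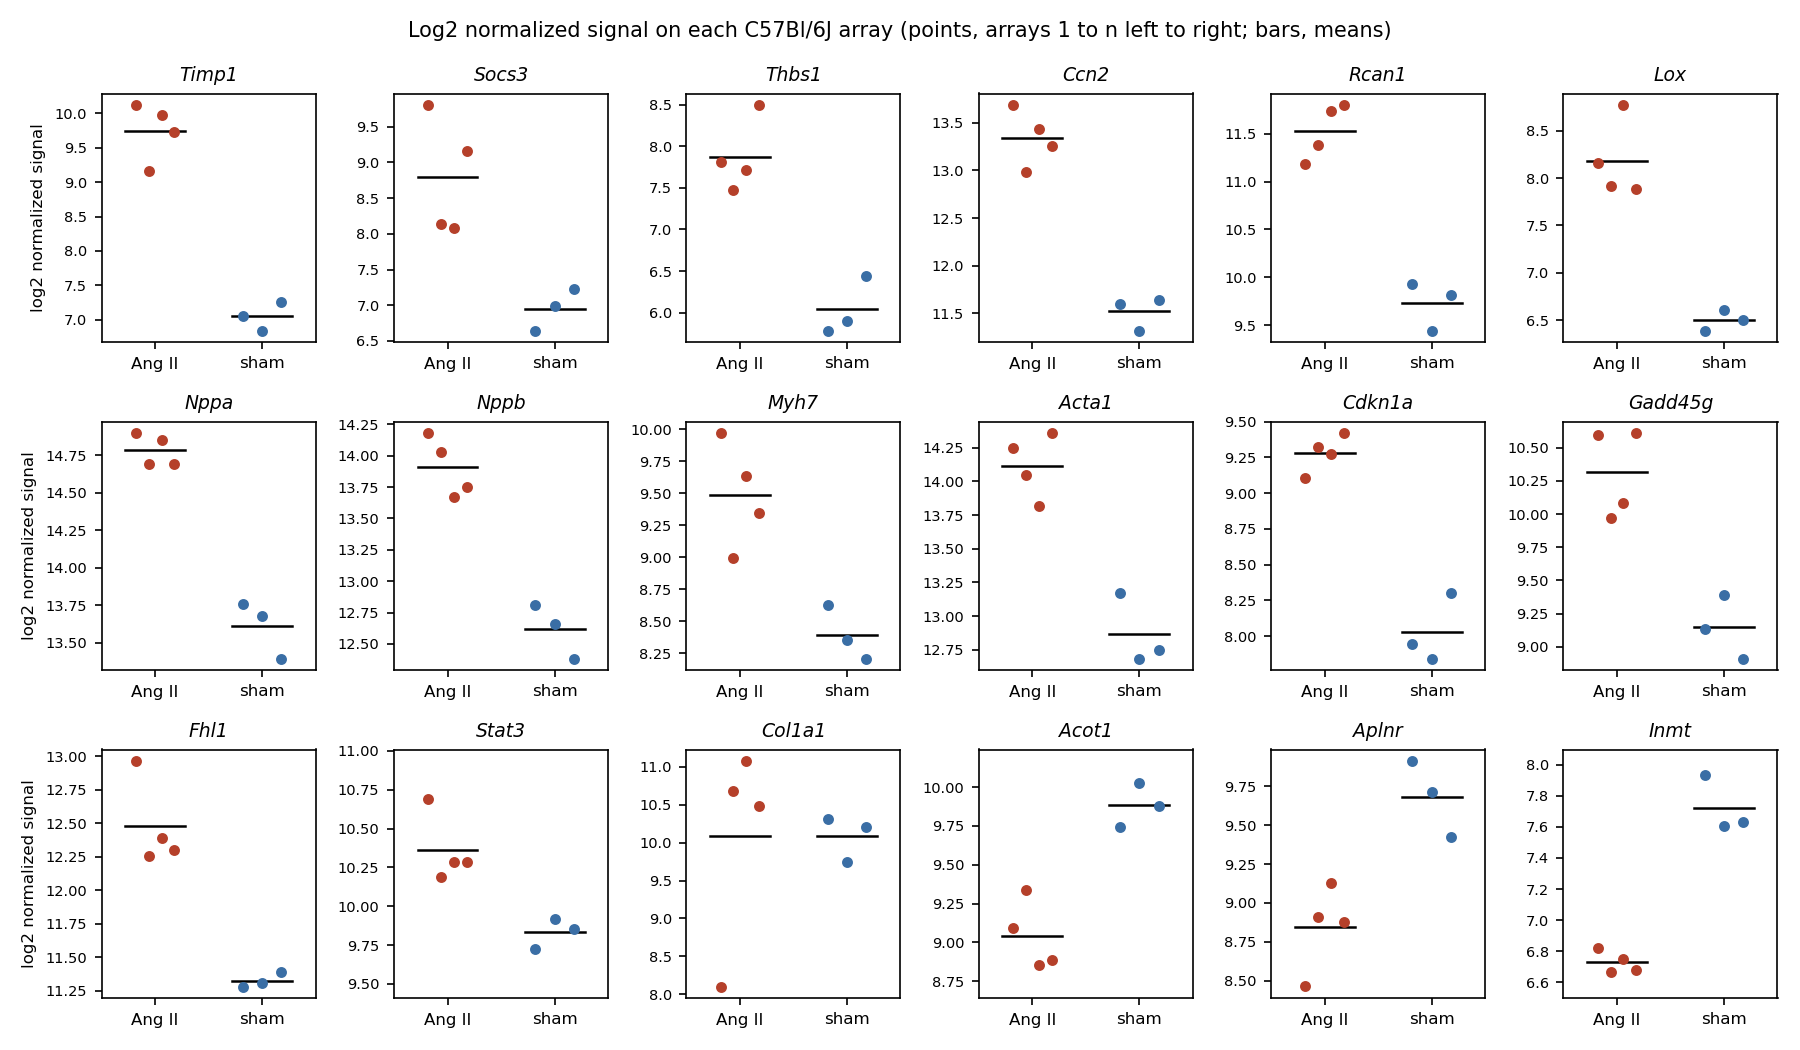
Log2 normalised signal (y axis, own scale for each gene) of 18 genes on the 4 angiotensin II arrays (red, left) and the 3 sham arrays (blue, right) of C57Bl/6J, each point 1 array in numerical order and each bar a group mean. In 17 of the 18 panels the groups did not overlap; in Col1a1 angiotensin II 1, at 8.10, lay below all 3 sham arrays.

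Promoter sequences of the genes that rose were read because serum response factor, which drives actin and other muscle genes through the CArG box, is a textbook regulator of Acta1. The window searched ran from 250 bases before to 50 after the annotated start, from RefSeq on build GRCm38.p6, with the start base counted as 0. Of the 51 named higher genes that were looked up, 42 had a window. A CArG box (CC, 6 letters that are each A or T, then GG, on either strand) was found in 3 of these, Acta1, Fhl1 and H2ac22. The 250 bases before the start are shown for these 3, 5′ to 3′ on the gene's strand, with the CArG letters in capitals and, in Acta1 alone, also an M-CAT box (CATTCC on either strand, the motif of TEAD factors) in capitals.
Acta1: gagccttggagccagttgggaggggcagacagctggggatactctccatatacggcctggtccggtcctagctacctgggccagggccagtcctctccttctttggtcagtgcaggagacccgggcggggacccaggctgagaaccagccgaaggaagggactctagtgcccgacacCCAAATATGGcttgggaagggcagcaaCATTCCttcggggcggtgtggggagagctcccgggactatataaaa
Fhl1: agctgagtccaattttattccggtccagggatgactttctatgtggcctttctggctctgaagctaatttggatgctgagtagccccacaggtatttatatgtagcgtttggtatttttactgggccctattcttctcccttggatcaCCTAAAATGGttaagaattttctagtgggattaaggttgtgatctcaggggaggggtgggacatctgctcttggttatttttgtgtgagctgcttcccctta
H2ac22: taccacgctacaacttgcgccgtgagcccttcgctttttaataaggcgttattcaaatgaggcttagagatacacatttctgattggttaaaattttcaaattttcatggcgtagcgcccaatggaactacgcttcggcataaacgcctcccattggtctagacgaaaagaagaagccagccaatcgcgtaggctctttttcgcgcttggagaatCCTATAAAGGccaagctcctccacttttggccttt

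These windows lie at chr8:123894776-123895025 on the minus strand for Acta1, at chrX:56779433-56779682 on the plus strand for Fhl1 and at chr13:21787249-21787498 on the minus strand for H2ac22, a replication-dependent histone gene. The CArG letters sit at positions -73 to -64 in Acta1, -102 to -93 in Fhl1 and -35 to -26 in H2ac22, where they share letters with a TATA-like run. The M-CAT box of Acta1 lies closer to the start, at -46 to -41. Among all 94 higher genes, 71 had a window and 4 of these (5.63%) held a CArG box, the other being Robo1, a guidance receptor named after its letters were seen, against 0 of 24 lower genes and 1.52% of 7099 tested genes with a window. The M-CAT box was in 15 of the 71 (21.1%), in 1 of the 24 lower genes (4.17%) and in 12.2% of the tested genes, and among the named higher genes it was also in Timp1, Myh7, Acta2, Mybpc2, Ankrd1, Myl1, Pdlim3, Cish and Stat3. An AP-1 site (TGANTCA, either strand) was in 2.82% of the higher genes and 5.09% of the tested ones, and a STAT site (TTC, any 3 letters, then GAA, either strand) in 5.63% and 6.41%. Letters alone do not show that a factor binds, and these shares are descriptions.

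Several genes of the actin cytoskeleton rose, each by a moderate amount. Of 34 tested targets of serum response factor and its MRTF cofactors, 6 were called higher, against 0.999% of all tested rows, and 0 lower, with a median log2 change of 0.28. In 17 of them all treated arrays lay above all sham arrays, against 7.94% of all tested rows. Acta2, smooth muscle alpha-actin, had log2 signals of 12.33, 12.29, 12.81 and 12.35 on the treated arrays, against 11.49, 11.46 and 11.62 on the sham arrays. Angiotensin II 3 was the highest of its group (log2 change 0.92 ± 0.14, adjusted p = 0.0082). Actg2, the enteric smooth muscle actin, changed by 1.29 ± 0.27 (adjusted p = 0.0312), and Actb, cytoplasmic beta-actin, by 0.52 ± 0.12 (adjusted p = 0.049).

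The PDZ and LIM domain proteins, which tie alpha-actinin to signalling proteins at the Z-disc and on stress fibres, had called rises in Pdlim1, Pdlim3, Pdlim5 and Pdlim7. Pdlim7 had log2 signals of 9.35, 9.12, 9.07 and 9.09 under angiotensin II, against 8.41, 8.28 and 8.40 in sham (log2 change 0.79 ± 0.11, adjusted p = 0.00599). Pdlim5 had 11.83, 11.65, 11.76 and 11.67 in treated ventricles, against 10.94, 11.33 and 11.11 in sham ventricles. Among 14 tubulin and microtubule genes the median log2 change was 0.30, with Tubb6, a beta-tubulin, the 1 called (1.17, adjusted p = 0.037). Smooth muscle and pericyte markers as a list had a median log2 change of -0.11 over 12 tested genes, and Acta2 was the 1 called.

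In the extracellular matrix a few members were called higher, while the main fibrillar collagens did not pass. Of 27 tested genes of fibrillar collagens and matrix structure, 4 were called higher and 0 lower, against 0.999% and 0.372% of all tested rows. The 4 were Tnc, Mfap5, Col16a1 and Bgn, and the list had a median log2 change of 0.47. Tnc, tenascin C, which is laid down in remodelling tissue, was above background on 4 of 4 treated and 0 of 3 sham arrays and its rise was at least 1.93-fold (adjusted p = 0.049). Its log2 signals were 5.89, 5.96, 7.26 and 6.74 under angiotensin II, against 4.86, 4.81 and 4.84 in sham ventricles.

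Mfap5, a microfibril glycoprotein, had log2 signals of 9.84, 10.17, 10.18 and 9.86 on the treated arrays, against 9.11, 8.65 and 8.91 on the sham arrays. Bgn, the small proteoglycan biglycan, changed by 0.66 ± 0.10 (adjusted p = 0.00687), and Col16a1, which associates with other matrix fibrils, by 0.70 ± 0.12 (adjusted p = 0.0108). In 12 of the 27 tested members of the list all treated arrays lay above all sham arrays, against 7.94% of all tested rows. Those of the 12 that missed the threshold included Fbn1, fibrillin 1 (0.69, adjusted p = 0.0583), Fbln2, fibulin 2 (0.47, adjusted p = 0.0579), Lum, lumican (0.50, adjusted p = 0.0617), and Col5a1 (0.62, adjusted p = 0.0662). These 4 are named after their values were seen.

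Col3a1, a main fibrillar collagen, had log2 signals of 7.94, 7.91, 7.90 and 7.35 under angiotensin II, against 7.19, 6.92 and 6.62 in sham (log2 change 0.87 ± 0.23, adjusted p = 0.0829). Col1a1, the other main one, had 8.10 on angiotensin II 1 and 10.68, 11.08 and 10.48 on the other treated arrays, against 10.30, 9.74 and 10.20 in sham. With all 4 treated arrays its log2 change was 0.00 ± 0.50 (adjusted p = 0.999), and without angiotensin II 1 it was 0.66 (adjusted p = 0.200). Postn, which encodes periostin, was above background on 0 of 4 treated and 0 of 3 sham arrays and was not tested. Of 16 basement membrane genes, with a median of 0.01, 8 had a change above 0. The 1 called was Col18a1, the source of endostatin (0.68, adjusted p = 0.048). Relative to the sham mean that list's median was -0.31, 0.14, 0.14 and 0.04 under angiotensin II, against 0.06, -0.11 and 0.01 in sham.

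Secreted regulators of the matrix included the rises past 3-fold in Timp1, Ccn2, Thbs1 and Lox. Timp1, an inhibitor of matrix metalloproteinases, had log2 signals of 10.13, 9.17, 9.98 and 9.73 in treated ventricles, against 7.06, 6.84 and 7.26 in sham ventricles. Angiotensin II 2 was the lowest treated array and still lay above every sham array. Ccn2, which is secreted in response to stretch and to TGF-beta, had 13.69, 12.98, 13.44 and 13.25 under treatment, against 11.60, 11.32 and 11.64 in sham. Thbs1, which activates latent TGF-beta, had 7.81, 7.47, 7.72 and 8.50 under angiotensin II, against 5.79, 5.90 and 6.44 in sham. Of 13 matricellular genes, 3 were called higher, Tnc beside these, against 0.999% of all tested rows, with a median log2 change of 0.51.

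Lox, the enzyme that cross-links collagen and elastin, had log2 signals of 8.15, 7.91, 8.77 and 7.88 on the treated arrays, against 6.39, 6.60 and 6.50 on the sham arrays (log2 change 1.68 ± 0.29, adjusted p = 0.0108). With Adamts2, the protease that trims fibrillar procollagens (0.52, adjusted p = 0.0137), it made up the 2 called among 18 genes of collagen processing and cross-linking, whose median was 0.21. Over all tested rows 0.999% were called higher and 0.372% lower. The 29 tested proteases and inhibitors had 3 called higher, 1 lower and a median of 0.11. Beside Timp1 these were Adamts1, a protease of proteoglycans (1.07, adjusted p = 0.0337), Ctsk, the collagen-degrading cathepsin K (0.50, adjusted p = 0.0149), and, falling, Mmp11 (-0.61 ± 0.13, adjusted p = 0.0337). Adamts1 had log2 signals of 7.51, 7.85, 7.93 and 8.07 under treatment, against 6.13, 6.75 and 7.44 in sham, where the 3 arrays were spread widely.

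TGF-beta and activin genes as a list showed a median log2 change of 0.08 over 24 members, and the 1 called was Inhba, the subunit of activin A (0.99 ± 0.20, adjusted p = 0.0278). Its log2 signals were 6.74, 6.93, 7.21 and 7.08 under angiotensin II, against 6.01, 5.69 and 6.31 in sham. Fibroblast markers had a median of 0.21 over 15 tested members, with 1 called, Mfap5, which is also in the matrix list. Relative to the sham mean that list's median was 0.38, 0.15, 0.43 and 0.16 under angiotensin II, against 0.11, -0.13 and 0.02 in sham. The share of fibroblasts in the tissue was not measured.

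**Figure D3:**
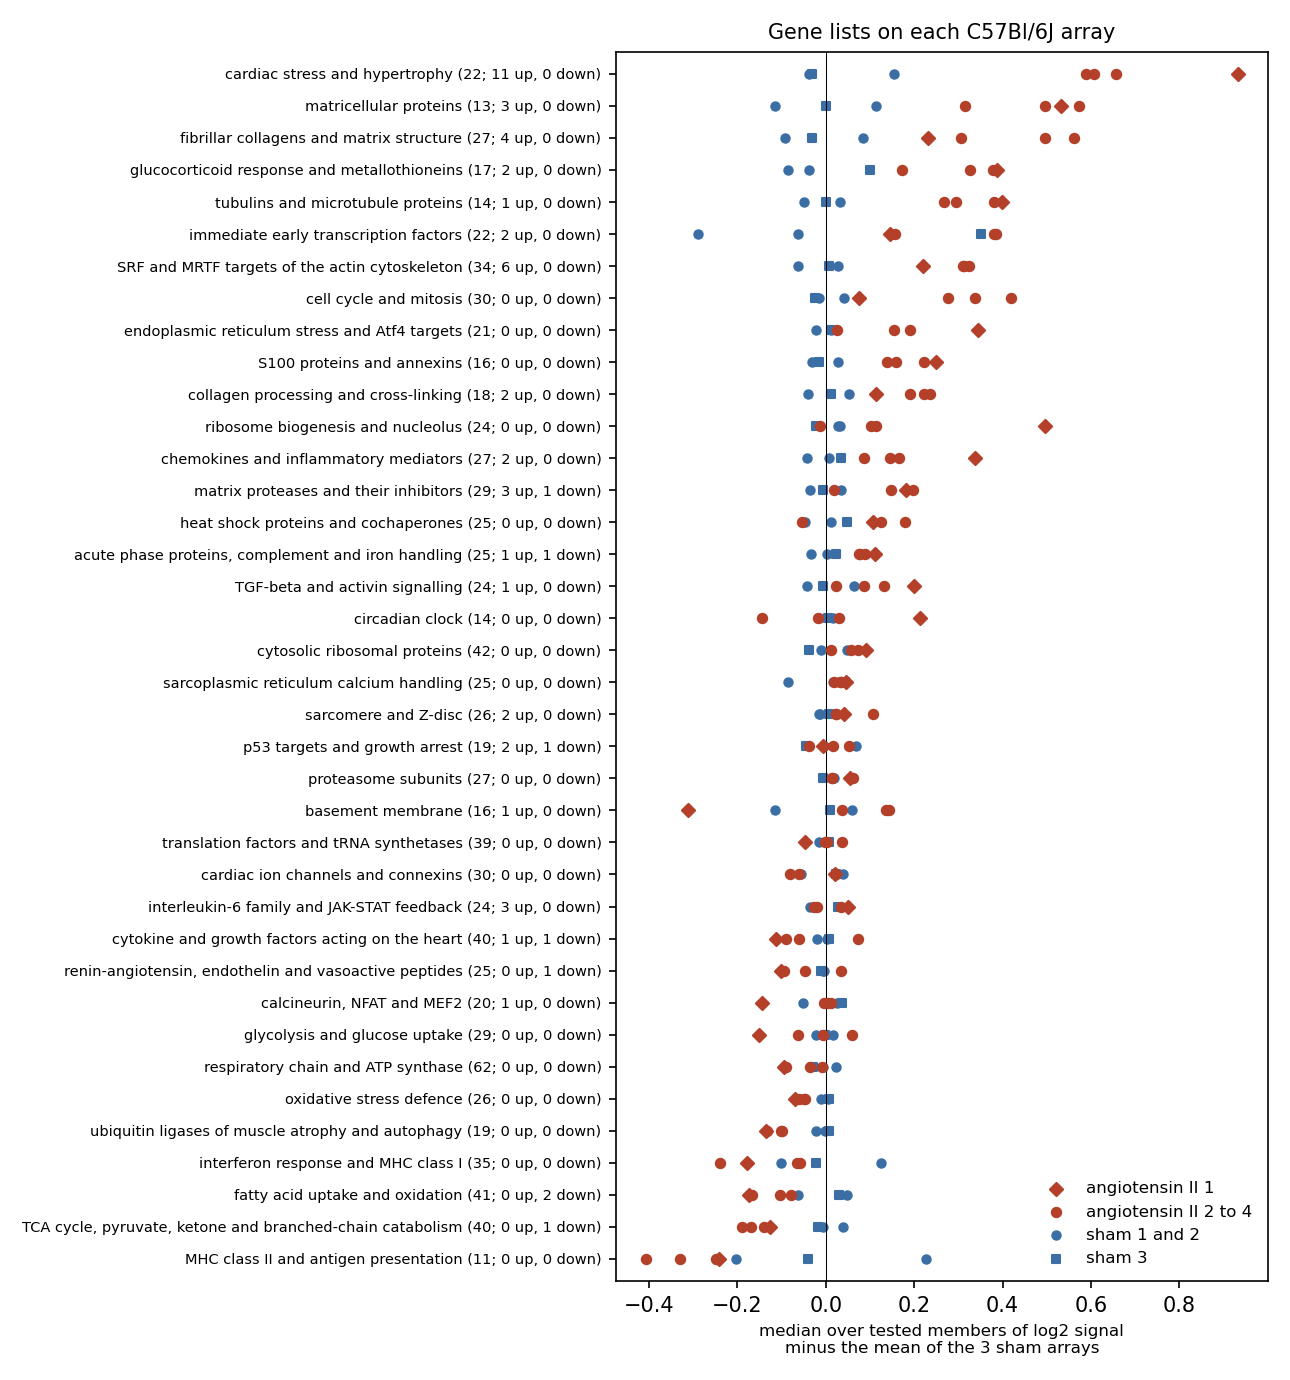
Median log2 signal over the tested members of each of 38 gene lists, as a difference from the mean over the 3 sham arrays (x axis), on each C57Bl/6J array: angiotensin II in red (array 1 as a diamond) and sham in blue (array 3 as a square), with the number tested and called beside each list. The lists with all treated arrays to the right of all sham arrays included the cardiac stress, matricellular, matrix, tubulin and actin lists. Others of this kind were the collagen processing, cell cycle, glucocorticoid and chemokine lists, among more. Those wholly to the left included the fatty acid, TCA cycle, muscle atrophy, oxidative stress and MHC class II lists. In the immediate early list sham 3 lay among the treated arrays.

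A few regulators of cytokine signalling rose within a list whose median stayed near 0. Of 24 tested genes of the interleukin-6 family and JAK-STAT feedback, 3 were called higher and 0 lower, against 0.999% and 0.372% of all tested rows. The list had a median log2 change of -0.01. Socs3, which is induced by STAT3 and shuts off signalling from the gp130 receptor, had log2 signals of 9.81, 8.14, 8.08 and 9.16 under angiotensin II, against 6.64, 6.99 and 7.22 in sham ventricles. Treated arrays 1 and 4 were clearly higher than treated arrays 2 and 3 (log2 change 1.85 ± 0.33, adjusted p = 0.0137). Its promoter window held STAT letters, TTCTTAGAA, at -154 to -146. The window of Cish held them at 0 to 8 and at 11 to 19, and that of Stat3 held 0. STAT sites were no more common among the higher genes (5.63%) than among the tested genes (6.41%). Stat3, the transcription factor itself, had 10.69, 10.19, 10.29 and 10.28 under treatment, against 9.73, 9.92 and 9.85 in sham (log2 change 0.53 ± 0.11, adjusted p = 0.0358). Cish, another STAT-induced inhibitor, had 11.96, 12.30, 12.43 and 12.33 on the treated arrays, against 11.58, 11.58 and 11.65 on the sham arrays (log2 change 0.65 ± 0.13, adjusted p = 0.027).

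Arid5a, an RNA-binding protein that stabilises the messages of Il6 and Stat3, was above background on 3 of 4 treated and 0 of 3 sham arrays and its rise was at least 1.30-fold (adjusted p = 0.0359). Hbegf, a ligand of the EGF receptor that is shed in response to angiotensin II, had log2 signals of 8.93, 9.16, 9.31 and 9.52 in treated ventricles, against 8.52, 8.42 and 8.47 in sham ventricles (adjusted p = 0.0314). It was the 1 called higher among 40 growth factors and cytokines acting on the heart, whose median was -0.04, and the 1 called lower was Frat2 (-0.76). Frat2 binds GSK3 and promotes Wnt signalling.

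Of 27 tested chemokines and inflammatory mediators, 2 were called higher and 0 lower, against 0.999% and 0.372% of all tested rows, with a median of 0.18. Ptx3, a pentraxin made at sites of inflammation, was above background on 3 of 4 treated and 0 of 3 sham arrays and its rise was at least 1.59-fold (adjusted p = 0.0288). Ccl19, a lymphocyte chemokine, rose by 0.65 ± 0.13 (adjusted p = 0.0268). Ccl2, the main monocyte chemokine, had log2 signals of 8.05, 6.65, 6.22 and 6.79 under angiotensin II, against 5.87, 5.41 and 5.03 in sham, where 1 of 3 arrays was above background (log2 change 1.49 ± 0.48, adjusted p = 0.153). Ccl7, a chemokine of the same receptor, had 9.36, 8.14, 7.49 and 8.27 under treatment, against 6.96, 6.94 and 7.33 in sham (1.24 ± 0.47, adjusted p = 0.223). Angiotensin II 1 was the highest array for Ptx3, Ccl2 and Ccl7. Hp, which encodes haptoglobin, rose by 1.13 ± 0.19 (adjusted p = 0.0104).

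No list of leukocyte markers held a gene called by limma. Macrophage and monocyte markers had a median log2 change of 0.14 over 21 tested members, of which 0 were called and 1 had an unadjusted p under 0.05, against 15.3% of all tested rows. Spp1, which encodes the macrophage product osteopontin, was above background on 4 of 4 treated and 0 of 3 sham arrays. Its log2 signals were 6.34, 5.90, 5.99 and 5.92 under angiotensin II, against 4.95, 4.74 and 4.70 in sham. The groups did not overlap and the rise was at least 1.43-fold, but it was not called (limma adjusted p = 0.239). In the fit on 14 arrays the SE of its log2 change was 0.48, while the SD was 0.20 among the treated and 0.14 among the sham arrays. Of 11 tested genes of MHC class II and antigen presentation, 0 were called by limma and 6 had an unadjusted p under 0.05, 5 of them lower, with a median of -0.39. Cd74, the invariant chain, had log2 signals of 9.69, 9.94, 10.52 and 10.57 on the treated arrays, against 11.23, 10.52 and 10.82 on the sham arrays (log2 change -0.67 ± 0.24, adjusted p = 0.187). Neutrophil markers varied inside the treated group, with list medians of 0.05, -0.57, -1.04 and 0.85 relative to sham, and of 5 tested 0 were called by limma and 1 had an unadjusted p under 0.05. Of 12 lymphocyte marker rows 2 passed the filter, with 0 below an unadjusted p of 0.05 in limma. Among 7 red cell markers, 0 were called by limma and 2 had an unadjusted p under 0.05, and the list median was 0.45, 0.97, -0.11 and 0.52 under angiotensin II, against 0.05, -0.13 and 0.08 in sham. Slc4a1, the anion exchanger of red cells, had 8.94, 9.05, 7.41 and 8.80 under treatment, against 7.11, 6.94 and 7.14 in sham (1.49 ± 0.38, adjusted p = 0.0662).

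Immediate early genes, which are switched on within minutes of a stimulus, varied widely among the sham arrays. Of 22 tested members 2 were called higher, Egr2 (1.26 ± 0.28, adjusted p = 0.0369) and Ier3 (0.73 ± 0.16, adjusted p = 0.0359), against 0.999% of all tested rows, and the median was 0.30. Sham 3 was the highest sham array in 17 of the 22 and lay above the lowest treated array in 16. Fos, the founding member of the class, had log2 signals of 8.0, 7.09, 7.49 and 7.64 under angiotensin II, against 5.65, 7.19 and 8.65 on sham 1, 2 and 3. Egr1, a zinc-finger factor, had 11.81, 11.15, 12.22 and 11.67 in treated ventricles, against 9.80, 10.37 and 11.30 in sham ventricles (log2 change 1.22 ± 0.32, adjusted p = 0.0814). Atf3, a stress-induced repressor, had the largest change of any row not called, 2.0 ± 0.49 (adjusted p = 0.0579), with 8.32, 7.41, 7.61 and 9.80 under treatment, against 5.92, 5.68 and 7.27 in sham. Hspa1a, inducible Hsp70, had 6.96, 9.30, 7.54 and 9.90 under treatment, against 6.40, 6.15 and 8.12 in sham, with sham 3 again the highest of its group.

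Cell cycle inhibitors moved in both directions, and no tested member of the cell cycle and mitosis list was called. Cdkn1a, the inhibitor p21, had log2 signals of 9.10, 9.32, 9.28 and 9.42 on the treated arrays, against 7.94, 7.84 and 8.30 on the sham arrays (log2 change 1.25 ± 0.18, adjusted p = 0.00599). Gadd45g, a stress sensor of the growth arrest family, had 10.59, 9.97, 10.09 and 10.61 under angiotensin II, against 9.14, 9.39 and 8.91 in sham. In the opposite direction, Cdkn1c, the inhibitor p57, had 9.59, 9.35, 9.49 and 9.37 under treatment, against 10.05, 10.01 and 9.96 in sham (-0.56 ± 0.12, adjusted p = 0.0337). The p53 and growth arrest list as a whole had a median of 0.04 over 19 members, with 2 called higher and 1 lower. Over all tested rows these shares were 0.999% and 0.372%.

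Of 30 tested cell cycle and mitosis genes 0 were called by limma and 8 had an unadjusted p under 0.05, with a median log2 change of 0.27, and 11 of them had all treated arrays above all sham arrays, against 7.94% of all tested rows. Prc1, which bundles microtubules at cytokinesis, stood just outside the threshold (1.44 ± 0.34, adjusted p = 0.05001), and just inside it the highest adjusted p of a called gene was 0.0499. Its log2 signals were 7.12, 8.43, 8.05 and 7.94 under angiotensin II, against 6.88, 6.30 and 6.18 in sham. Top2a, the topoisomerase of dividing cells, was 5.65 on angiotensin II 1 and 7.40, 7.07 and 6.83 on the other treated arrays, against 5.83, 5.78 and 5.93 in sham. Without angiotensin II 1, 3 of the 30 were called higher and their median was 0.35. H2ac22, whose promoter is shown above, was called (1.2 ± 0.28, adjusted p = 0.0477), and H2ac10, another replication-dependent histone, was not (1.27 ± 0.33, adjusted p = 0.076).

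Genes induced by glucocorticoids had a median log2 change of 0.41 over 17 tested members, with 2 called higher, against 0.999% of all tested rows. They were Cdkn1a and Fkbp5, a cochaperone of the glucocorticoid receptor, which had log2 signals of 7.01, 6.81, 6.79 and 7.41 under angiotensin II, against 6.11, 6.22 and 6.07 in sham. Heat shock, endoplasmic reticulum stress, oxidative stress, proteasome, cytosolic ribosomal protein, translation and circadian clock lists had 0 members called by limma, with medians between -0.08 and 0.22 and 5, 7, 2, 2, 3, 5 and 2 members at an unadjusted p under 0.05, in the order named. Their tested members numbered 25, 21, 26, 27, 42, 39 and 14. Of all tested rows, 15.3% had an unadjusted limma p under 0.05, the share to set beside the counts in this paragraph. Ribosome biogenesis genes also had 0 of 24 called by limma, and 3 at an unadjusted p under 0.05. On angiotensin II 1 their median stood at 0.50 above sham, against 0.11, -0.01 and 0.10 on the other treated arrays. The S100 and annexin (median 0.22, 16 tested), sarcoplasmic reticulum calcium (0.06, 25 tested), muscle atrophy (-0.11, 19 tested) and interferon (-0.12, 35 tested) lists had 0 called by limma and 5, 4, 5 and 3 at an unadjusted p under 0.05. Endothelial markers had 0 of 14 called by limma, 2 at an unadjusted p under 0.05 and a median of -0.08, and the adipocyte, mesothelial and Schwann cell lists had 3 tested markers each, 0 called by limma and 1, 1 and 0 at an unadjusted p under 0.05. Cardiomyocyte markers had a median of -0.01, with 0 of 13 called by limma and 1 at an unadjusted p under 0.05.

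The falls were smaller and mostly in single genes. Inmt, a methyltransferase of indole amines, had the largest change of a called fall, with log2 signals of 6.82, 6.66, 6.75 and 6.68 on the treated arrays, against 7.93, 7.61 and 7.63 on the sham arrays (-0.99 ± 0.23, adjusted p = 0.0477). Aplnr, the receptor of apelin, a peptide that dilates vessels and opposes angiotensin II, had 8.47, 8.91, 9.13 and 8.88 under angiotensin II, against 9.91, 9.71 and 9.42 in sham (-0.84 ± 0.19, adjusted p = 0.0485). It was the 1 called, and the 1 called lower, among 25 tested genes of the renin-angiotensin, endothelin and vasoactive peptide systems, whose median was -0.04. Agtr1a itself had 9.50, 10.04, 9.81 and 9.63 under treatment, against 10.03, 9.97 and 9.90 in sham, a log2 change of -0.22 ± 0.15 (adjusted p = 0.495). Agt, the precursor of angiotensin, was above background on 1 of 4 treated and 0 of 3 sham arrays.

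Genes of fuel metabolism had medians slightly below 0, with 3 called falls. Of 41 tested genes of fatty acid uptake and oxidation, 0 were called higher and 2 lower, against 0.999% and 0.372% of all tested rows. The list had a median log2 change of -0.13. Acot1, a cytosolic acyl-CoA thioesterase and target of PPAR-alpha, had log2 signals of 9.09, 9.34, 8.86 and 8.88 under angiotensin II, against 9.75, 10.03 and 9.88 in sham (-0.84 ± 0.16, adjusted p = 0.0223). Dgat2, which makes triglyceride, had 13.07, 13.51, 13.26 and 13.32 in treated ventricles, against 13.91, 13.75 and 13.85 in sham ventricles (-0.54 ± 0.12, adjusted p = 0.0481). Ucp3, a mitochondrial carrier also controlled by PPAR-alpha, changed by more, -1.18 ± 0.30, but was less even and did not pass (adjusted p = 0.0753). Its signals were 6.62, 7.68, 7.70 and 7.42 under treatment, against 8.21, 8.58 and 8.81 in sham.

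Ogdh, the first component of the 2-oxoglutarate dehydrogenase complex, had log2 signals of 13.07, 13.29, 13.25 and 13.24 on the treated arrays, against 13.65, 13.73 and 13.53 on the sham arrays (-0.42 ± 0.10, adjusted p = 0.0481). It was the 1 called among 40 genes of the TCA cycle and of pyruvate, ketone and branched-chain catabolism, whose median was -0.15, and 14 of the 40 had all treated arrays below all sham arrays, against 9.19% of all tested rows. Respiratory chain and ATP synthase genes had 0 of 62 called by limma, 1 at an unadjusted p under 0.05 (15.3% of all tested rows) and a median of -0.07. For glycolysis these values were 0 of 29, 6 and -0.07, and for ion channels and connexins 0 of 30, 6 and -0.00. Prkab1, a regulatory subunit of the energy sensor AMPK, named here after its values were seen, had a log2 change of -0.53 ± 0.10 (adjusted p = 0.0176).

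Slc46a1, the proton-coupled folate transporter, had log2 signals of 4.99, 5.80, 5.63 and 5.93 under angiotensin II, of which 3 were above background, against 6.46, 6.19 and 6.37 in sham. Scara5, a ferritin receptor, changed by -0.62 (adjusted p = 0.0377) and Cbx7, a Polycomb protein, by -0.62 (adjusted p = 0.00951). Srrm4, a splicing factor best known from neurons, had a log2 change of -0.78 ± 0.18 (adjusted p = 0.049). Another 4 genes were above background on all 3 sham arrays and on 0 of 4 treated arrays. Poln, which encodes a DNA polymerase, was at least 1.49-fold lower. For Sh3yl1 the bound was 1.26-fold lower, for the nicotinic receptor subunit gene Chrna2 it was 1.18-fold, and for Sp2, a zinc-finger factor, 1.10-fold.

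Of the 129 called genes, 52 were in at least 1 of the 38 pathway lists and 77 were in none. Spsb4, an adaptor of a ubiquitin ligase, combined a change above 2-fold with a narrow spread, with log2 signals of 9.18, 8.81, 8.83 and 9.04 under angiotensin II, against 7.99, 7.85 and 7.93 in sham (1.04 ± 0.13, adjusted p = 0.0057). Qsox1, a secreted enzyme that forms disulphide bonds, changed by 0.79 ± 0.11 (adjusted p = 0.00599), Kcne4, a regulatory subunit of potassium channels, by 0.61 ± 0.09 (adjusted p = 0.00599), and the aminopeptidase gene Aopep by 0.60 ± 0.09 (adjusted p = 0.00599). Adora2b, an adenosine receptor, was above background on 4 of 4 treated and 0 of 3 sham arrays and was at least 1.77-fold higher, and Syt12, a synaptotagmin, was at least 1.68-fold higher with the same pattern.

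Several more higher genes are named after their values were seen. Csrp2, a LIM protein of smooth muscle, had log2 signals of 9.95, 9.73, 10.21 and 9.85 on the treated arrays, against 9.22, 8.94 and 9.06 on the sham arrays (0.86 ± 0.17, adjusted p = 0.0233). Psat1, an enzyme of serine synthesis, changed by 0.86 ± 0.19 (adjusted p = 0.0432). Sphk1, which makes sphingosine 1-phosphate, changed by 0.74 ± 0.13 (adjusted p = 0.0108), Ptgis, prostacyclin synthase, by 0.66 ± 0.14 (adjusted p = 0.0337), and Ddah1, which clears an inhibitor of nitric oxide synthase, by 0.65 ± 0.14 (adjusted p = 0.0366). Tlr4, the endotoxin receptor, had 6.92, 6.60, 6.41 and 6.69 under treatment, against 5.89, 5.78 and 6.23 in sham. Nrap, which joins actin to the intercalated disc, changed by 0.57 ± 0.11 (adjusted p = 0.0223).

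Angiotensin II 1 differed from the other treated arrays in a set of single genes. Of the 196 rows (2.08% of those tested) in which it lay more than 1 log2 unit from each of the other 3, it was below them in 123 and above them in 73. Calr, the chaperone calreticulin, had a log2 signal of 8.88 on that array, against 11.29 to 11.63 on the other treated arrays and a sham mean of 11.54. Ryr2, the calcium release channel of cardiomyocytes, had 7.19, against 9.03 to 9.37. Tmsb10, an actin-sequestering thymosin, had 8.41, against 10.59 to 10.77. Above the others stood Ptpn1, a tyrosine phosphatase, at 7.19, against 5.17 to 5.37. For genes that were called, the same array was often the most changed: it was the highest of the 4 treated arrays for 49 of the 94 higher genes and the lowest for 19 of the 35 lower ones. These genes are named after their values were seen, and the cause of the difference was not tested.

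**Figure D4:**
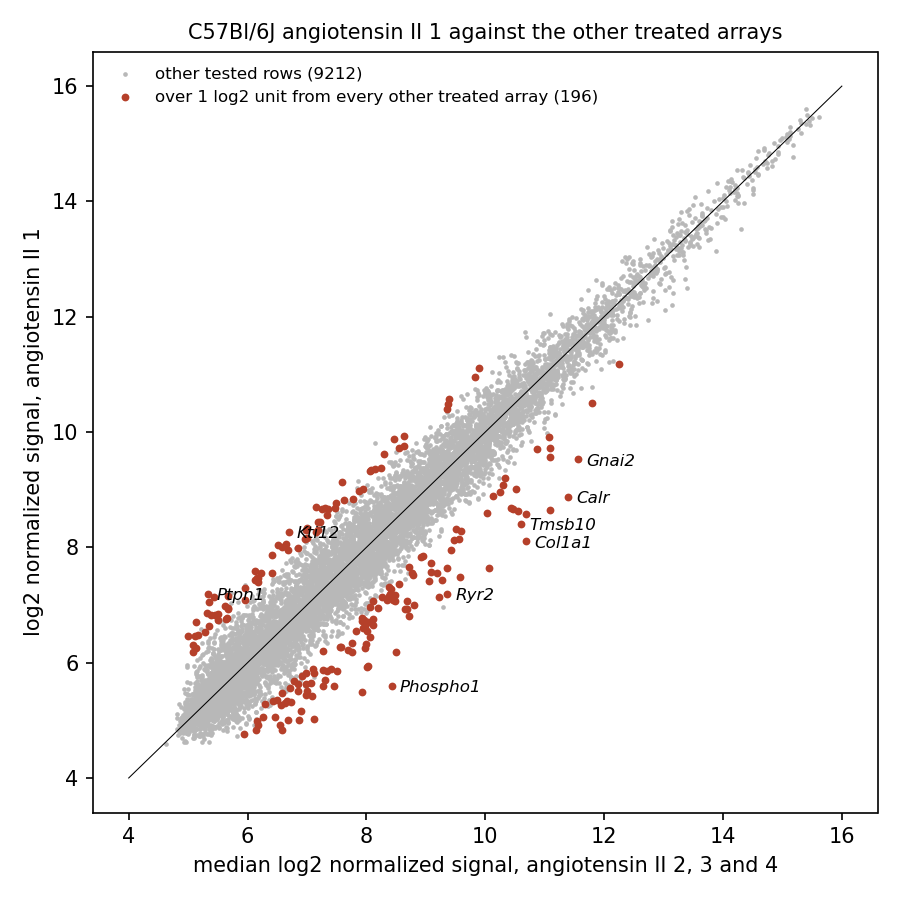
Log2 normalised signal on angiotensin II 1 (y axis) against the median of angiotensin II 2, 3 and 4 (x axis) for the 9408 tested rows, with the 196 rows over 1 log2 unit from each of the other 3 arrays in red and the line of equality in black. The red rows lie on both sides of the line, 123 below and 73 above, and include Col1a1, Calr and Ryr2.

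The C57Bl/6J response was set against that of C57Bl/6N by the difference of the 2 responses in the same fit. Of the 94 genes higher in C57Bl/6J, 91 had a change of the same sign in C57Bl/6N and 70 were called higher there too, against 52.3% of the 4509 tested rows with a positive change having the same sign and 9.45% of all tested rows called higher in C57Bl/6N. Sppl2a, an intramembrane protease named after its values were seen, was the 1 called the opposite way. Of the 35 lower genes, 30 had the same sign and 13 were also called lower, against 64.5% of the 4899 rows with a negative change and 7.92% of all tested rows called lower. The difference of responses was called for 1 of the 9408 rows (0.0106%), Ankrd2, a stretch-responsive relative of Ankrd1 that was above background on none of the 7 C57Bl/6J arrays and so has no size of change there (adjusted p of the difference = 0.00417). Among the 129 called genes the lowest adjusted p of the difference was 0.0682, shared by Plxna2, a semaphorin receptor (0.61 in C57Bl/6J and -0.35 in C57Bl/6N), and Sppl2a (0.56 and -0.45). Spp1 had an adjusted p of the difference of 0.0682. A p that misses the threshold does not show that the substrains respond alike.

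The number of called genes depended on single arrays, most of all on the sham arrays. Without sham 2, 1 gene was called, Ccn2, without sham 1 there were 32, and without sham 3 there were 45. Of the 32 and the 45, 31 and 40 were among the 129. Among the treated arrays, 119 were called without angiotensin II 1, 135 without angiotensin II 2, 85 without angiotensin II 3 and 62 without angiotensin II 4. Of these, 92, 100, 74 and 59 were among the 129, in the order named. All 129 genes kept the sign of their change in these 7 fits, which the lack of overlap between groups fixes for all of them but Meox1. Ccn2 kept its call in all 7, and 20 genes, among them Thbs1, Tnfrsf12a, Cdkn1a, Acta1, Gadd45g, Fhl1, Spsb4, Acta2, Xirp1, Pdlim3, Pdlim7, Qsox1, Bgn, Kcne4 and Aopep, kept theirs in 6.

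**Figure D5:**
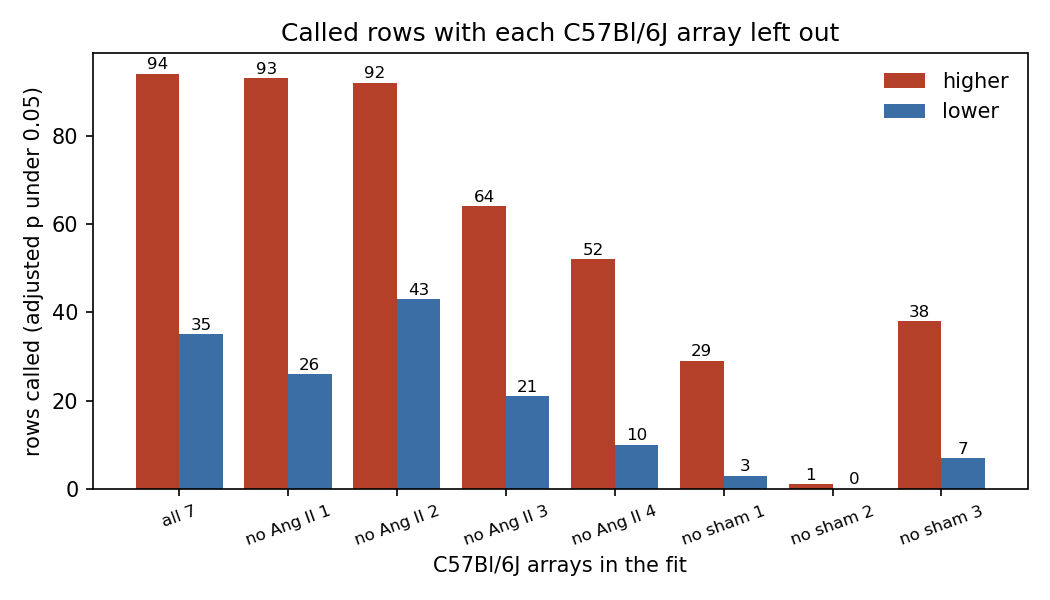
Number of rows called higher (red) and lower (blue) in the limma fit (y axis) with all 7 C57Bl/6J arrays and with each left out in turn (x axis). There were 1 higher and 0 lower without sham 2, and 93 and 26 without angiotensin II 1, against 94 and 35 with all 7 arrays.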

How the data were processed

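Left ventricular RNA was measured on 14 Illumina arrays, 7 of them from C57Bl/6J, grouped by their source labels. Per the labels' protocols, RNA extraction used a column kit with DNase I, and biotinylated cRNA was made from it with an Ambion kit. The authors deposited a signal intensity, on a linear scale and not normalised between arrays judging from its values, and a detection p-value per array for 18138 gene rows. A second deposited table of intensity values was used only as an alternative. Neither the array model nor the scanner software is named in those sources.

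Intensities were background-corrected with a normal-exponential model, given an offset of 16, quantile-normalised over the 14 arrays and put on a log2 scale, with limma 3.58.1 in R 4.3.3. No control probes were used. The background mean (60.8 to 69.2 on the C57Bl/6J arrays) and SD (11.6 to 16.6) were inferred from the detection p-values of the 14215 rows (78.4%) that lay within 0.2% of a step of a grid of 798 steps, the spacing that 798 negative controls would give. The offset makes fold changes of dim genes too small.

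The 14 arrays entered 1 linear model of 4 group means (lmFit and eBayes) that had 10 residual degrees of freedom and 4.8 prior ones, and adjusted p-values are Benjamini-Hochberg values over the 9408 tested rows. Above background means a signal at or over the dimmest detected grid row of that array. Where a whole group was below it, folds are lower bounds: the mean of the brighter group over the mean, across the dim arrays, of the higher of that dimmest signal and the gene's own. Symbols were updated through a RefSeq table of GRCm38.p6 (14309 rows by symbol, 2662 through an older name, 1167 left as in the file, because they had no match or 1 that was ambiguous or already had a row).

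Genes were named by rule: the 30 largest rises and 20 largest falls called, called members of 38 pathway and 12 marker lists, 14 fixed genes, the 10 largest changes of at least 2-fold not called, and the 10 lowest adjusted p-values. Some list members shown with their values fall outside this rule, among them Ucp3, Cd74, Fos, Top2a, Myl7 and Myl4. They were picked with the results known. The members and lists were chosen with earlier results of these data known. The script was tested on simulated data with 200 changed rows. Alternatives covered the background, normalisation, filter, variance model, array weights, a test against a 1.2-fold change, the arrays in the fit and each array left out.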

Additional observations from a re-analysis of the deposited data

Results flagged for a closer look

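Of the 93 named genes, 5 had 1 of the 4 angiotensin II arrays apart from the other 3 by Dixon's criterion. Chance meets that criterion in about 1 in 20 groups, and 5 flags among 93 genes lie near that rate. Slc4a1, the red cell anion exchanger, had a log2 signal of 7.41 on angiotensin II 3, where the nearest other treated array had 8.80. Uck2 had 10.4 on angiotensin II 1, where the nearest had 9.99. Acta2 had 12.8 on angiotensin II 3, next to 12.35, and Bgn had 13.4 on the same array, next to 13.2. Col3a1 had 7.35 on angiotensin II 4, next to 7.90. The 5 flags fall on 3 different arrays.

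Ankrd2 was the 1 gene whose response differed between the substrains by the test of the difference itself (limma adjusted p = 0.00417). In C57Bl/6J none of the 4 treated or 3 sham arrays measured it above background, and its 4 arrays above background were all in the other substrain.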

How the results depend on the processing

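The 129 calls (94 higher, 35 lower) moved with the setting. With only the 7 C57Bl/6J arrays in the fit 70 rows were called (58 and 12), with these 7 normalised on their own 85 (68 and 17), with background inferred from all rows 67 (38 and 29), and with no filter 75 (53 and 22). Of these, 53, 64, 56 and 71 were among the 129, in the order named. Array weights, in which angiotensin II 1 had 0.171 against 0.921 to 2.0 for the other C57Bl/6J arrays, gave 559 (329 and 230). A test against a 1.2-fold change gave 2 (2 and 0). Median scaling gave 92, 44 of them higher, a share of 47.8% in place of 72.9%, and moved the median of all tested rows to -0.06. Leaving out 1 array at a time gave 1 to 135 called, 1 to 93 higher and 0 to 43 lower. The deposited table, quantile normalisation without background correction, the stricter filter, the filter by signal and the trended robust fit gave 121 to 139 called. The cause of these differences was not tested.

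Over the named genes and these alternatives, 1212 values kept their direction and side of the threshold, 498 lost the call, 22 gained one and 7 changed sign. The sign changes were in 2 genes with a change near 0. The Myh6 log2 change was -0.00490 with array weights and ran from -0.031 (without angiotensin II 1) to 0.113 with 1 array left out. The Col1a1 log2 change was -0.0655 with median scaling and ran from -0.328 (without angiotensin II 3) to 0.663 (without angiotensin II 1), with -0.196, -0.129 and -0.167 without angiotensin II 2, angiotensin II 4 and sham 2. No paired analysis was possible because the labels share no replicate number between groups, and those used here are names only. Dim genes limit what could be seen: 7 of the higher and 5 of the lower calls rest on a group with no array above background.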
